A study of Mus musculus with 24 samples.

Results

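Runx2, Sox5, Sox6, Sox9, Col2a1, Col9a1, Col9a2, Hapln1 and Matn4 are genes of the programmes that build cartilage and bone, and their transcripts were measured in stromal cells of the embryonic mouse kidney. The 9 genes were taken by symbol, and 9 of 9 were among the 13803 genes in the deposited values. Messenger RNA was sequenced in 24 libraries of cells sorted for a FoxD1Cre-eGFP transgene, in which the Foxd1 promoter of the renal stroma drives Cre and a green fluorescent protein in all 8 groups. The groups of 3 libraries were β-catenin-deficient stroma (β-catSD, here SD) on C57BL/6 at E12.5 and E13.5 (E, embryonic day), stroma with stabilised β-catenin (β-catSO, here SO) on CD1 at E12.5 and E13.5, and wild-type stroma of each strain at both days. Which alleles remove or stabilise β-catenin is not stated in the sources used, and strain goes with mutant line, so each mutant was set against wild-type cells of its own strain and day. According to the series record, 3 kidneys of each genotype were sorted. Nothing says that the libraries of a group are separate kidneys or animals, so a p-value measures the spread between these libraries, which may be technical.

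Cartilage cells depend on Sox9, which acts with Sox5 and Sox6 on genes of the cartilage matrix such as Col2a1, Col9a1, Col9a2 and Hapln1. Runx2 is the transcription factor without which osteoblasts do not form, and it also drives maturation of cartilage cells. In the skeleton, Wnt signalling through β-catenin favours osteoblasts over cartilage cells, whereas the Foxd1-positive stroma of the kidney normally gives rise to interstitial cells, mesangial cells and pericytes and forms neither tissue.

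The windows of 4 promoters are printed because they belong to genes with higher transcript levels in SO cells and each holds the letters CTTTGA, the core read by the TCF/LEF factors that bring β-catenin to DNA. Each window runs from 250 bases before to 50 bases after an annotated start in RefSeq, build GRCm38.p6, and 7 of the 9 genes matched the promoter table by symbol. The windows lie at chr17:44814578-44814877 on the minus strand for Runx2, chr1:24177360-24177659 on the plus strand for Col9a1, chr4:121039316-121039615 on the plus strand for Col9a2 and chr2:164405111-164405410 on the minus strand for Matn4. Capitals mark CTTTGA or its reverse TCAAAG and, in Runx2, also the RUNX core TGTGGT in its reverse form ACCACA.
Runx2: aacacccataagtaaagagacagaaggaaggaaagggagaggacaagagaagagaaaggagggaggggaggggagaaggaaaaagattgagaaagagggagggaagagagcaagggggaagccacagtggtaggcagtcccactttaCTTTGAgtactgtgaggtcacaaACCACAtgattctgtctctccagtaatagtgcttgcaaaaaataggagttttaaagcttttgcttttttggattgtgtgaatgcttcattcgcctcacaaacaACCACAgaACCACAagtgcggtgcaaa
Col9a1: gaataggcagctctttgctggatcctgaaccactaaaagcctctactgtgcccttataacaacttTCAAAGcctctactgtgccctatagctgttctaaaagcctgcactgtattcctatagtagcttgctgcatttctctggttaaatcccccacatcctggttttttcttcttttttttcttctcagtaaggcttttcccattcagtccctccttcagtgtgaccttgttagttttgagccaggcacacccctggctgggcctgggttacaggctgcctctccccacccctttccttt
Col9a2: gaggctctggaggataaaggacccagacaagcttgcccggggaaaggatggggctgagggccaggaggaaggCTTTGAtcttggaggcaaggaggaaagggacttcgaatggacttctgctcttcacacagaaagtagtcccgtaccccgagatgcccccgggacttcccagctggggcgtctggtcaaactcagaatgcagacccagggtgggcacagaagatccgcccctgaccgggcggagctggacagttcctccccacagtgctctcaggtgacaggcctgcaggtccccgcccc
Matn4: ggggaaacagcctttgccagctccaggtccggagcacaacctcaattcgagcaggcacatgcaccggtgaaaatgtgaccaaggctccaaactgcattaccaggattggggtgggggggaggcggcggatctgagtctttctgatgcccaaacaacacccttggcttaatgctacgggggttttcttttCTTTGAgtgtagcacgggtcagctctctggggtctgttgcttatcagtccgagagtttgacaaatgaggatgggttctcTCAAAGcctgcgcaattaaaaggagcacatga

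CTTTGA occurred on either strand in 16% of the 32851 RefSeq promoter windows of the same length, so a single match is common. The Runx2, Col9a1 and Col9a2 windows held 1 match each and the Matn4 window held 2. Second annotated windows of Col9a1 and Matn4 held none of the motifs searched. Of 6 annotated Sox6 windows, 3 held CTTTGA, while the Sox5 and Hapln1 windows had none. The Sox5 window, at 143947057 to 143947356 on chromosome 6, belongs to a start inside the gene. Bases near the outer start of Sox5, at 144781977 on the minus strand, were not searched. The other letters searched on both strands were CTTTGT, found in 18.7% of windows, the SOX cores ACAATG in 12.6% and ACAATA in 9.13%, and the RUNX core TGTGGT in 16.8%. TGTGGT was found 3 times in the Runx2 window, 1 time in the Hapln1 window and 1 time in each of 2 Sox6 windows. These matches describe the printed bases and are not evidence of binding. Sox9 and Col2a1 were not in the promoter table.

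Levels are given as CPM, counts per mega-read on the deposited scale, which adds 0.5 to each count and scales library sizes by TMM. Changes are on the log2 scale, mutant minus wild-type, with the SE of the limma fit, and a gene was called when its p, adjusted over all 13803 genes by the Benjamini-Hochberg method, was under 0.05. Libraries held 6.18 to 21.2 M reads (M, mega-reads), and within-group correlations of log2 CPM ran between 0.927 and 0.978. As a check of the labels, Axin2, a target of Wnt signalling, changed by -1.03 in SD cells at E12.5 and by -1.01 a day later, and by 3.47 in SO cells at E12.5 and 3.73 a day later, all called. The summed level of 10 stromal markers was 8241 to 13310 CPM in the 24 libraries. Foxd1 itself was read at 132 to 616 CPM, with its lowest values in SO E13.5 cells. One library, wild-type CD1 E13.5 replicate 1, stood apart with 453 CPM over 13 ureteric markers and 406 CPM over 8 nephron progenitor markers, against 129 to 131 CPM and 120 to 132 CPM in the other libraries of its group. That library also held its group's highest Sox6, Sox9, Col2a1 and Hapln1 levels and its lowest Runx2 level. Without it the Runx2 change in SO cells was 2.25 at E13.5 (adjusted p = 9.41e-07), against 2.80 with it. The other changes in SO cells at E13.5 without it were 2.25 for Col9a1 (adjusted p = 0.000359), 1.24 for Col9a2 (adjusted p = 0.000636), -0.09 for Hapln1 (adjusted p = 0.847) and 1.61 for Matn4 (adjusted p = 0.434), on the same side of the threshold as with it, and those of Sox5, Sox6, Sox9 and Col2a1 are given with the genes or counts. In the mean over days the same 6 genes were called without it and Sox6 was added. The 6 calls on the SO effect minus the SD effect were also kept, at 1.303 for Runx2, -0.91 for Sox5, 3.43 for Sox6, 2.99 for Col2a1, 1.39 for Col9a1 and -0.72 for Hapln1. A pair of other libraries stood apart in 9 markers of liver, gonad and adrenal: wild-type C57BL/6 E12.5 replicate 3 had 3807 CPM, against 3.00 and 5.03 CPM in its group, and also 695 CPM over 12 macrophage markers, against 109 and 127 CPM, and wild-type CD1 E13.5 replicate 3 had 849 CPM, against 30.5 and 3.33 CPM. Without this pair the SO changes of Col2a1 at E13.5 (1.43, adjusted p = 0.103) and of Sox9 in the mean over days (0.42, adjusted p = 0.0659) were not called, and Hapln1 in the mean over days was called lower (-0.56, adjusted p = 0.0237). In sorted bulk samples, fewer expressing cells and less RNA per cell cannot be told apart.

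Runx2 was higher in both mutants, and more so in SO cells. SD cells at E12.5 had 11.3, 13.8 and 24.3 CPM of Runx2, against 8.20, 6.94 and 6.22 CPM in wild-type C57BL/6 cells. SD cells at E13.5 had 29.8, 23.0 and 36.0 CPM, against 13.4, 9.24 and 9.65 CPM in wild-type. SO cells at E12.5 had 40.1, 47.8 and 45.1 CPM, against 5.58, 5.27 and 6.33 CPM in wild-type CD1 cells. Every mutant library lay above every wild-type library of its own strain and day in these comparisons. SO cells at E13.5 had 45.1, 50.8 and 65.6 CPM, against 3.57, 11.2 and 11.2 CPM in wild-type, again without overlap. The change was 2.95 ± 0.32 at E12.5 (SE, adjusted p = 1.59e-06, limma) and 2.80 ± 0.32 at E13.5 (adjusted p = 1.28e-06) in SO cells, a 7.75-fold and a 6.94-fold difference. In SD cells it was 1.45 ± 0.32 at E13.5 (adjusted p = 0.0117) and 1.14 ± 0.32 at E12.5, where it missed the threshold (adjusted p = 0.074). Averaged over the days, Runx2 was 2.46-fold higher in SD cells (adjusted p = 0.000746) and 7.33-fold higher in SO cells (adjusted p = 2.49e-09). The difference between the mutant effects, 1.58 ± 0.32 greater in SO cells, passed the test (adjusted p = 0.00118). Runx2 lies on chromosome 17 at 44495987 to 44814797 (GRCm38, GENCODE M21, minus strand), where 519 exon bases overlap the antisense Runx2os1. The strand of counting is not given, so reads of the antisense gene cannot be told apart from those of Runx2 over these bases.

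In order of mean log2 level, Runx2 ran SO E13.5, SO E12.5, SD E13.5, SD E12.5, wild-type C57BL/6 E13.5, wild-type CD1 E13.5, wild-type C57BL/6 E12.5 and wild-type CD1 E12.5. Between neighbours in that order, libraries were fully separated only at the step between SO E12.5 and SD E13.5. The SD call at E13.5 needed SD replicate 3 and wild-type replicates 2 and 3, since leaving out any of these ended it (highest adjusted p = 0.0693). For the other genes, the group with the highest mean was SD E12.5 for Sox9, SD E13.5 for Sox5 and Hapln1, SO E13.5 for Col9a2, and SO E12.5 for Sox6, Col2a1, Col9a1 and Matn4. The highest group was separated from the next one for Sox5, Col2a1, Col9a1 and Matn4 and overlapped it for Sox6, Sox9, Col9a2 and Hapln1. The share of all genes with groups separated in such ways was not counted. Separation of libraries is therefore a description, here and in the other comparisons. The Runx2 means over days in SD and SO cells held in all 12 fits that left out 1 library.

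**Figure D1:**
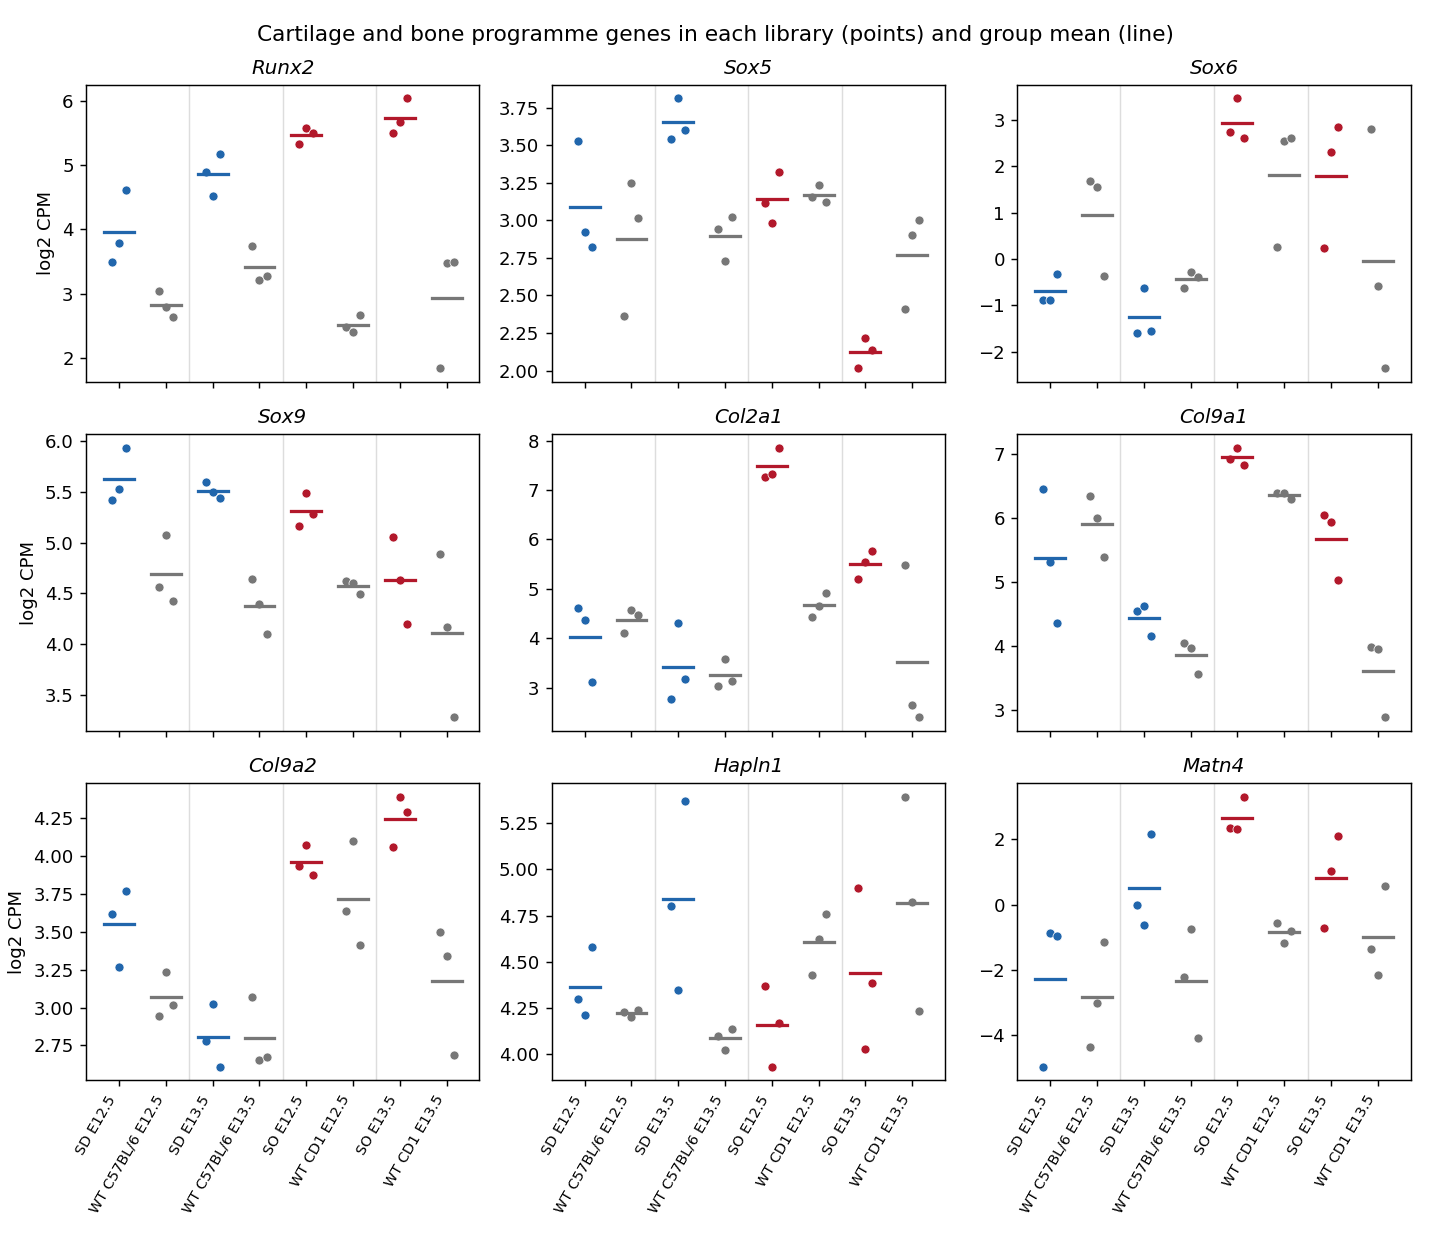
Level of each of the 9 genes as log2 CPM (vertical axes, with a scale for each gene) in the 24 libraries, with mutants left of their wild-type group; points are libraries and lines group means. Runx2 separates both mutants from their wild-type libraries at each day, whereas Col2a1 is high in SO libraries. Sox9 has its highest group means in SD libraries and also lies above wild-type in SO libraries at E12.5.

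Sox9, the transcription factor that starts and maintains cartilage, had its highest levels in SD cells. SD cells at E12.5 had 42.9, 46.3 and 61.3 CPM, against 23.6, 33.8 and 21.5 CPM in wild-type C57BL/6 cells. SD cells at E13.5 had 48.6, 45.1 and 43.4 CPM, against 24.9, 21.1 and 17.1 CPM in wild-type. The SD and wild-type libraries did not overlap at either day. Averaged over days, Sox9 rose by 1.04 ± 0.19 in SD cells (adjusted p = 0.00111), and this call held in all 12 fits that left out 1 library. At single days the change was 1.14 ± 0.27 at E13.5 (adjusted p = 0.0188) and 0.94 ± 0.27 at E12.5 (adjusted p = 0.0772). The E13.5 call rested on few libraries: it ended without any 1 of the SD libraries and without wild-type replicate 2 or 3 (highest adjusted p = 0.109). In SO cells Sox9 had 35.9, 44.9 and 38.9 CPM at E12.5, against 24.6, 24.3 and 22.6 CPM in wild-type CD1 cells. At E13.5 SO cells had 33.3, 24.9 and 18.4 CPM and overlapped with the 29.5, 18.0 and 9.69 CPM of wild-type. The libraries were separated at E12.5 only. The mean over days rose by 0.63 ± 0.19 (adjusted p = 0.0224), a call lost with voom weights (adjusted p = 0.056), in a fit of the 12 libraries of the line alone (adjusted p = 0.0592) and without SO E12.5 replicate 2, SO E13.5 replicate 1 or wild-type CD1 E13.5 replicate 3 (adjusted p up to 0.0719). The SO effect minus the SD effect was -0.41 ± 0.27 and did not pass (adjusted p = 0.34). Sox9 lies on chromosome 11 at 112782224 to 112787760 on the plus strand.

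Sox9 is also made by tips of the ureteric bud and by early nephrons, so their markers are set beside it. Of all genes, 3.46% were called higher and 3.71% lower in SD cells in the mean over days. In SO cells 10.2% were called higher and 8.32% lower. Over 13 ureteric markers, summed levels were 125 to 161 CPM in SD and 111 to 150 CPM in wild-type C57BL/6 cells at E12.5, and 155 to 177 CPM in SD and 110 to 133 CPM in wild-type cells at E13.5. In the mean over days 1 of the 13 was higher in SD cells (Etv5) and 1 lower (Krt8). Over 8 nephron progenitor markers, sums were 182 to 255 CPM in SD and 106 to 120 CPM in wild-type cells at E12.5, and 229 to 279 CPM in SD and 126 to 145 CPM in wild-type cells at E13.5, with 1 of 8 called higher (Meox1). Over 7 early nephron markers, sums were 287 to 486 CPM in SD and 301 to 366 CPM in wild-type cells at E12.5, and 454 to 572 CPM in SD and 441 to 490 CPM in wild-type cells at E13.5, and none was called in the mean over days. In SO cells 3 of the 7 were higher (Cdh6, Jag1 and Wnt4) and 1 lower (Pax8), with sums of 525 to 547 CPM in SO and 339 to 369 CPM in wild-type CD1 cells at E12.5, and overlapping sums of 629 to 733 CPM in SO and 426 to 638 CPM in wild-type cells at E13.5. Ureteric sums were 116 to 134 CPM in SO and 118 to 146 CPM in wild-type CD1 cells at E12.5, with 2 of 13 called higher (Wnt11 and Emx2) and 1 lower (Etv5) in the mean over days, and 139 to 203 CPM in SO and 129 to 453 CPM in wild-type cells at E13.5. Nephron progenitor sums were 118 to 165 CPM in SO and 115 to 143 CPM in wild-type CD1 cells at E12.5, with 2 of 8 called higher (Tmem100 and Osr1) and 1 lower (Meox1) in the mean over days, and 124 to 183 CPM in SO and 120 to 406 CPM in wild-type cells at E13.5. With lists this short, counts of 1 to 3 genes are not read as results about the markers. The called genes were named after their values were seen, and their part in the Sox9 difference was not tested.

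Sox5 and Sox6, which carry no activation domain of their own and assist Sox9 on cartilage genes, did not pass the test in any comparison of a mutant with its wild-type when all libraries were used. Sox5 had 11.7, 14.0 and 12.1 CPM in SD cells at E13.5, against 7.67, 6.62 and 8.13 CPM in wild-type, without overlap (0.76 ± 0.23, adjusted p = 0.075). SO cells at E13.5 had 4.04, 4.65 and 4.41 CPM, against 5.32, 7.48 and 7.999 CPM in wild-type CD1 cells, also without overlap and on the other side (-0.65 ± 0.23, adjusted p = 0.0605). At E12.5 the groups overlapped in both lines, with 11.5, 7.58 and 7.08 CPM in SD cells and 5.16, 9.51 and 8.09 CPM in wild-type C57BL/6 cells, and 8.66, 7.90 and 10.0 CPM in SO cells and 8.91, 9.41 and 8.69 CPM in wild-type CD1 cells. The Sox5 effect in SO cells minus that in SD cells was -0.82 ± 0.23 and passed (adjusted p = 0.0145). Sox5 spans chromosome 6 at 143828425 to 144781977 on the minus strand, and 1330 of its exon bases overlap the antisense Sox5os1.

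Sox6 was near the lower limit of the data in SD cells and variable in CD1 libraries. SD cells had 0.55, 0.55 and 0.80 CPM at E12.5, against 3.19, 2.95 and 0.77 CPM in wild-type C57BL/6 cells. At E13.5 they had 0.33, 0.65 and 0.34 CPM, against 0.65, 0.82 and 0.76 CPM in wild-type. The SD sums over 3 libraries were 17 reads at E12.5 and 8 reads at E13.5, so fold changes of Sox6 in this line carry large counting error. SO cells had 6.72, 11.04 and 6.10 CPM at E12.5, against 1.20, 5.86 and 6.12 CPM in wild-type CD1 cells. At E13.5 SO cells had 1.18, 4.93 and 7.19 CPM, and wild-type had 6.998, 0.67 and 0.20 CPM. Mutant and wild-type ranges of Sox6 overlapped in all 4 comparisons. The wild-type value of 6.998 CPM came from the library that stood apart. Without it the SO change at E13.5 was 3.27 and passed (adjusted p = 0.00571), against 1.84 ± 0.92 with it (adjusted p = 0.194). The mean over days was 2.20 without it (adjusted p = 0.00448) and 1.49 ± 0.65 with it (adjusted p = 0.122). Sox6 lies on chromosome 7 at 115470872 to 116038796 on the minus strand.

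Col2a1, which encodes the main fibrillar collagen of cartilage, was many-fold higher in SO cells and showed no called change in SD cells. SO cells at E12.5 had 154, 161 and 232 CPM, against 21.5, 25.2 and 30.0 CPM in wild-type CD1 cells. The lowest SO library lay far above the highest wild-type one, and the change was 2.82 ± 0.53 (adjusted p = 0.00111), a 7.07-fold difference. SO cells at E13.5 had 36.8, 46.4 and 54.4 CPM, against 44.8, 6.29 and 5.27 CPM in wild-type, where the library that stood apart lay within the SO range. With all libraries the E13.5 change was 1.99 ± 0.53 (adjusted p = 0.0116). It was 2.98 without the library that stood apart (adjusted p = 3.43e-06), and the call ended on leaving out wild-type replicate 2 or 3 (highest adjusted p = 0.0967). In SD cells Col2a1 had 24.3, 20.6 and 8.69 CPM at E12.5, against 17.1, 23.6 and 22.2 CPM in wild-type, and 6.86, 19.9 and 8.98 CPM at E13.5, against 8.25, 11.97 and 8.83 CPM in wild-type. These groups overlapped at both days, and the mean SD change was -0.09 ± 0.37 (adjusted p = 0.93). The SO effect exceeded the SD effect by 2.50 ± 0.53 on the log2 scale (adjusted p = 0.00162). Col2a1 lies on chromosome 15 at 97975602 to 98004695 on the minus strand.

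Col9a1 and Col9a2 encode chains of collagen IX, which coats the fibrils that Col2a1 forms. Col9a1 in SO cells had 121, 137 and 113 CPM at E12.5, against 84.0, 84.0 and 78.3 CPM in wild-type CD1 cells. At E13.5 SO cells had 65.9, 60.9 and 32.7 CPM, against 15.8, 15.5 and 7.35 CPM in wild-type. The libraries did not overlap at either day, but the difference was 2.06 ± 0.37 at E13.5 (adjusted p = 0.000289) and 0.59 ± 0.37 at E12.5 (adjusted p = 0.386). The mean over days was 1.33 ± 0.26 (adjusted p = 0.000627). In SD cells Col9a1 had 87.8, 39.8 and 20.5 CPM at E12.5, which overlapped the 81.3, 64.2 and 41.7 CPM of wild-type C57BL/6 cells. At E13.5 the SD values of 23.4, 24.7 and 17.8 CPM lay above the 16.4, 15.6 and 11.8 CPM of wild-type (0.59 ± 0.37, adjusted p = 0.511). The Col9a1 effect in SO cells exceeded that in SD cells by 1.299 ± 0.37 (adjusted p = 0.0156), which voom weights did not call (adjusted p = 0.0829). Col9a1 lies on chromosome 1 at 24177610 to 24252684 on the plus strand.

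Col9a2 moved less. SO cells had 15.3, 16.8 and 14.7 CPM at E12.5, against 12.46, 17.2 and 10.6 CPM in wild-type CD1 cells, with overlap. At E13.5 SO cells had 16.7, 21.0 and 19.6 CPM, against 11.3, 10.1 and 6.44 CPM in wild-type, without overlap. The E13.5 change was 1.07 ± 0.22 (adjusted p = 0.00119) and the mean over days 0.66 ± 0.15 (adjusted p = 0.00341). In SD cells the gene had 12.3, 9.64 and 13.7 CPM at E12.5, against 7.71, 9.43 and 8.09 CPM in wild-type, and 6.86, 8.13 and 6.10 CPM at E13.5, against 8.39, 6.29 and 6.37 CPM in wild-type. Only the E12.5 libraries were separated, and the change there did not pass (0.49 ± 0.22, adjusted p = 0.311). Col9a2 lies on chromosome 4 at 121039385 to 121055322 on the plus strand. The SO means over days of Runx2, Col2a1, Col9a1 and Col9a2 were called in all 12 fits that left out 1 library.

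**Figure D2:**
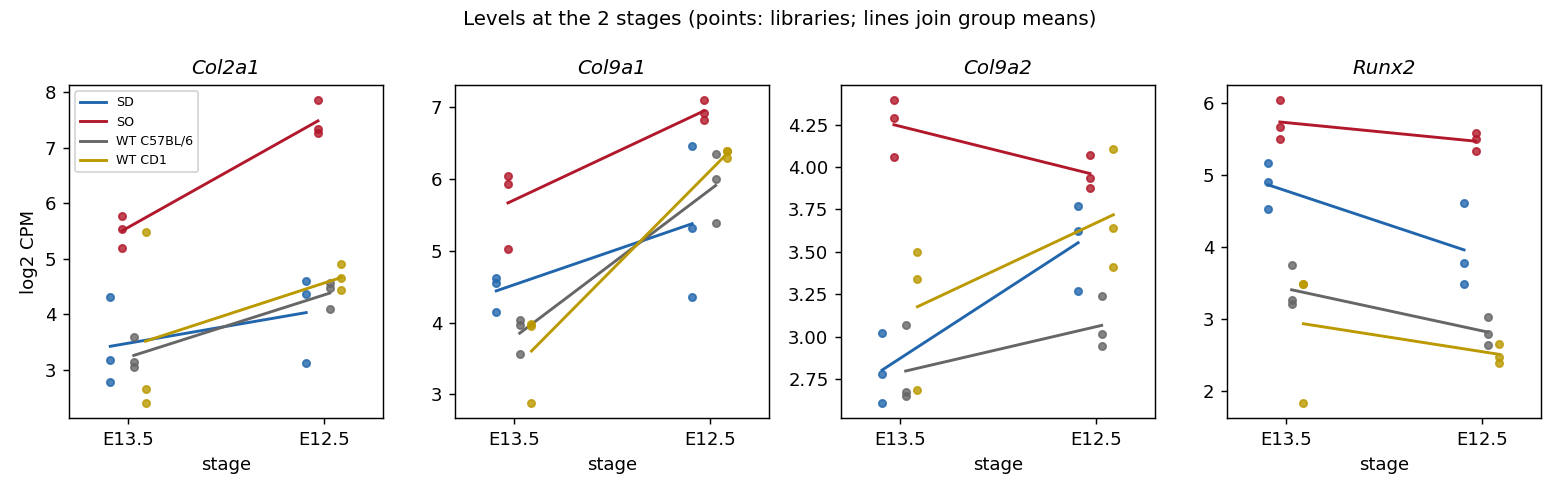
Log2 CPM (vertical axes, with a scale for each gene) of Col2a1, Col9a1, Col9a2 and Runx2, with E13.5 left of E12.5; points are libraries and lines join the means of SD, SO, wild-type C57BL/6 and wild-type CD1 groups. Col9a1 is lower at E13.5 than at E12.5 in both wild-type strains, and SO libraries lie above wild-type CD1 libraries in all but 2 comparisons, Col2a1 at E13.5 and Col9a2 at E12.5.

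Hapln1 encodes the link protein that ties hyaluronan to cartilage proteoglycans, and with all libraries it had no called change in either mutant. At E13.5 SD cells had 27.9, 20.4 and 41.3 CPM, against 17.1, 16.2 and 17.6 CPM in wild-type C57BL/6 cells, without overlap (0.75 ± 0.25, adjusted p = 0.106). At E12.5 SD cells had 19.7, 18.5 and 23.9 CPM and overlapped with the 18.7, 18.4 and 18.9 CPM of wild-type. SO cells at E12.5 had 20.6, 15.3 and 18.0 CPM, against 21.5, 24.7 and 27.1 CPM in wild-type CD1 cells without overlap (-0.45 ± 0.25, adjusted p = 0.316). At E13.5 SO cells had 29.8, 16.3 and 20.9 CPM and overlapped with the 42.0, 28.4 and 18.8 CPM of wild-type. The SO effect minus the SD effect was -0.86 ± 0.25 and passed (adjusted p = 0.0176), so Hapln1, like Sox5, stood lower in SO than in SD cells relative to the wild-type of each. Hapln1 lies on chromosome 13 at 89539796 to 89611652 on the plus strand.

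Matn4, a matrilin that links matrix fibrils, was read few times. SO cells had 31, 31 and 65 reads at E12.5, against 6, 4 and 5 reads in wild-type CD1 cells, and 7, 43 and 54 reads at E13.5, against 6, 1 and 11 reads in wild-type. Once scaled to CPM, the SO and wild-type libraries were separated at E12.5 and overlapped at E13.5. At E12.5 the SO change was 3.504 ± 1.12 and missed the threshold (adjusted p = 0.0573). It was called with voom weights (adjusted p = 0.0186), with 2 added to each count (adjusted p = 0.0103) and in the 12 libraries of the line alone (adjusted p = 0.0125). In the 6 limma fits that left out 1 library of this comparison it was called in 0 (adjusted p from 0.103 to 0.19). The mean over days rose by 2.65 ± 0.80 on the log2 scale (adjusted p = 0.0208), and was lost without SO E12.5 replicate 3, SO E13.5 replicate 3 or wild-type CD1 E13.5 replicate 2 (adjusted p up to 0.0626). SD cells had 0, 4 and 3 reads at E12.5, against 0, 1 and 5 reads in wild-type, and 7, 4 and 32 reads at E13.5, against 1, 5 and 0 reads in wild-type. At E13.5 a single SD library held 32 of the 43 SD reads, and the change of 2.86 ± 1.12 did not pass (adjusted p = 0.203). Fitted changes of a gene with counts of 0 depend on the 0.5 added to each count. Matn4 lies on chromosome 2 at 164389393 to 164405160 on the minus strand, and 149 of its exon bases overlap Rbpjl on the other strand.

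**Figure D3:**
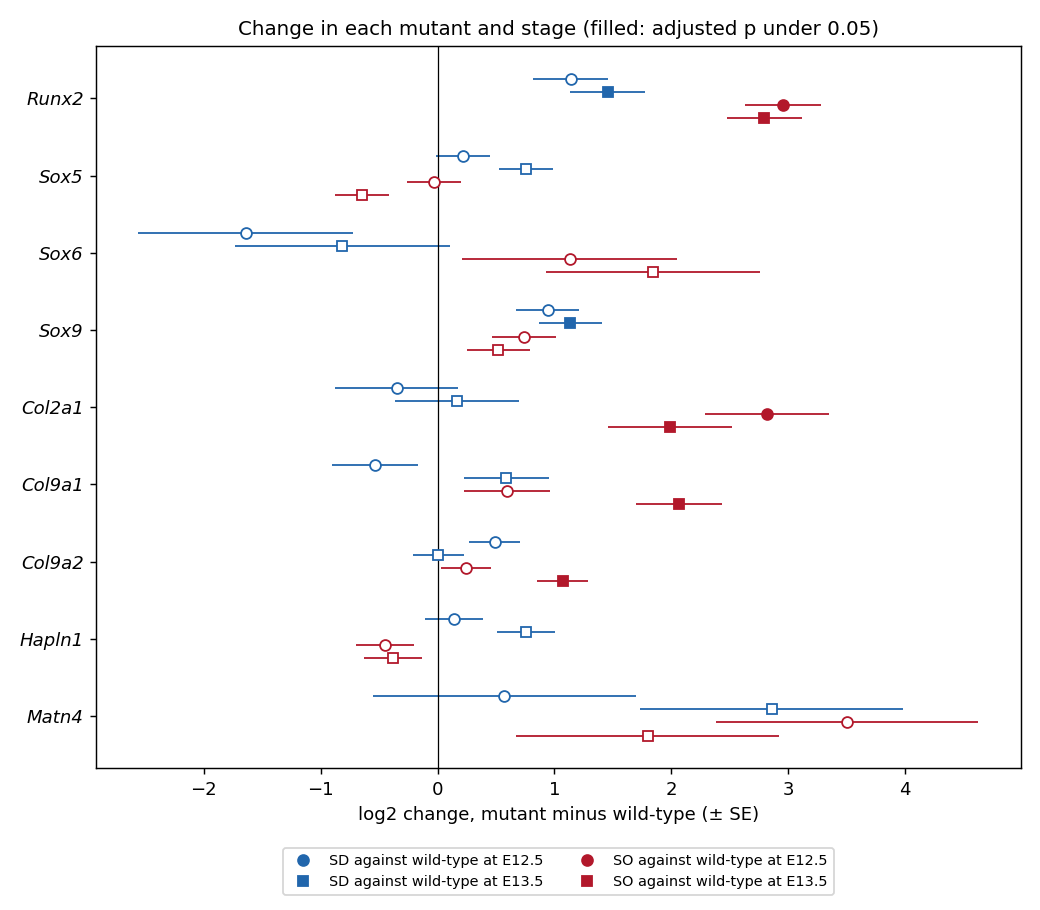
Change of each gene as log2 mutant minus wild-type (horizontal axis) with its SE, for SD (blue) and SO (red) at E12.5 (circles) and E13.5 (squares); filled symbols had an adjusted p under 0.05. Filled symbols are Runx2 and Sox9 for SD E13.5, Runx2 and Col2a1 for SO E12.5, and Runx2, Col2a1, Col9a1 and Col9a2 for SO E13.5.

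Counted over the 9 genes, SO cells had 6 called higher and 0 lower in the mean over days (Runx2, Col2a1, Col9a1, Col9a2, Matn4 and Sox9), where 18.5% of all genes were called, 10.2% higher and 8.32% lower; voom weights called 5, without Sox9. SD cells had 2 higher and 0 lower (Runx2 and Sox9), where 7.17% of all genes were called, 3.46% higher and 3.71% lower. Outside SO cells, Matn4 exceeded a log2 CPM of 0 only in SD E13.5 replicate 3 (2.155) and wild-type CD1 E13.5 replicate 3 (0.581). Matn4 thus met the filter of 3 libraries only through SO libraries, where it is high, and its call adds no support to the SO count. At single days 2 of 9 were called in SO cells at E12.5 (8.16% of all genes), 4 of 9 at E13.5 (15.4%), and 2 of 9 in SD cells at E13.5 (3.4%). In SD cells at E12.5 limma called 0 of 9, where 1.72% of all genes were called; 3 of 9 had an unadjusted p under 0.05 and voom weights called 1. Without wild-type CD1 E13.5 replicate 1, 7 of 9 were called in SO cells at E13.5, where 16.6% of all genes were, and the additions were Sox5 (-0.83, adjusted p = 0.024), Sox6 and Sox9 (0.91, adjusted p = 0.0122). The median change over the 9 genes was 1.33 in SO and 0.45 in SD cells, against medians within 0.01 of 0 over all genes.

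The change in SO minus the change in SD cells passed for 6 of 9 genes, where 17.9% of all genes did, and for 4 of 9 with voom weights, which called neither Sox6 nor Col9a1. It was positive for Runx2, Sox6, Col2a1 and Col9a1 and negative for Sox5 and Hapln1. The Sox6 difference of 2.72 ± 0.92 (adjusted p = 0.0428) was called in only 7 of 24 fits that left out 1 library and not with voom weights (adjusted p = 0.225), whereas the other 5 were called in 24 of 24. Since SO cells are CD1 and SD cells C57BL/6, this difference cannot be told apart from one of strain.

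Whether the mutant effects differed between days was tested as well. In SD cells 0 of 9 genes passed and 0% of all genes were called (0 of 13803 by limma, with 753 at an unadjusted p under 0.05, and 0 with voom weights); of the 9, 1 had an unadjusted p under 0.05. In SO cells 0 of 9 passed by limma and with voom weights, where 1.33% of all genes did. Of the 9, 2 had an unadjusted p under 0.05, Col9a1 (1.47 ± 0.52 greater at E13.5, adjusted p = 0.173) and Col9a2 (0.83 ± 0.31 greater at E13.5, adjusted p = 0.196). Thus the calls of Col9a1 and Col9a2 at E13.5 and not at E12.5 are not shown to differ between the days.

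In wild-type stroma Col9a1 was the gene whose change with age was called in both strains. It had 16.4, 15.6 and 11.8 CPM at E13.5, against 81.3, 64.2 and 41.7 CPM at E12.5, in C57BL/6 cells, and 15.8, 15.5 and 7.35 CPM at E13.5, against 84.0, 84.0 and 78.3 CPM at E12.5, in CD1 cells. The groups were far apart in both strains, with falls of 2.06 ± 0.37 in C57BL/6 (adjusted p = 0.00463) and 2.76 ± 0.37 in CD1 (adjusted p = 0.000204). It was the 1 of 9 genes called in each strain, where 3.96% of all genes were called in C57BL/6 and 5.42% in CD1. Col2a1 was also lower on average at E13.5, without a call. Its change was -1.12 ± 0.53 in C57BL/6 (adjusted p = 0.241, limma) and -1.15 ± 0.53 in CD1 (adjusted p = 0.221). Without the library that stood apart, 5 of 9 were called in CD1, where 5.73% of all genes were: Runx2 was higher at E13.5 (0.97, adjusted p = 0.0254), and Sox6 (-3.28), Sox9 (-0.85), Col2a1 (-2.14) and Col9a1 (-2.94) were lower. Between the strains, C57BL/6 against CD1, limma called 0 of 9 where 4.46% of all genes were called; 3 of 9 had an unadjusted p under 0.05 and voom weights called 1, Col9a2. The lowest adjusted p values were those of Col9a2 (-0.52 ± 0.15, adjusted p = 0.055) and Hapln1 (-0.56 ± 0.18, adjusted p = 0.07).

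Per kilobase of exon, so that genes can be compared, mean levels in SO E12.5 cells were 24.4 CPM for Col9a1, 19.7 for Col2a1, 9.64 for Sox9, 5.04 for Col9a2, 5.02 for Runx2 and 3.04 for Hapln1. Matn4 had 1.28 CPM per kilobase, Sox5 0.62 and Sox6 0.54. In wild-type CD1 E12.5 cells Col9a1 was again first at 16.2 CPM per kilobase, ahead of Sox9 at 5.76, Col9a2 at 4.34, Hapln1 at 4.14 and Col2a1 at 2.76. Col2a1 was thus behind Col9a1 alone in SO cells, and behind Sox9, Col9a2 and Hapln1 as well in wild-type cells of that day. At E13.5 SO cells had 10.5 CPM per kilobase of Col9a1, followed by Col9a2 and Sox9 at 6.17, Runx2 at 6.09 and Col2a1 at 4.96. Sox6 was last among the 9 in SO E12.5 cells, and Matn4 was last in wild-type CD1 E12.5 cells at 0.11 CPM per kilobase.

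Across the 24 libraries, which share their groups, the pairs of genes with the highest Pearson correlation of log2 CPM were Sox6 and Col2a1 (r = 0.81), Col2a1 and Col9a1 (0.76), Col2a1 and Col9a2 (0.70) and Sox6 and Col9a2 (0.70), as a description of 24 libraries. The lowest were Sox5 and Col9a2 (-0.41) and Sox5 and Sox6 (-0.36), while Sox5 had r = 0.34 to Sox9 and values near 0 to Col9a1 (0.01) and Hapln1 (0.03). Outside the 9, the gene most like Runx2 was Col11a1 (r = 0.95), a cartilage fibril collagen, followed by Tle1 and Ednra. Col2a1 was most like Sncaip (0.94), Col9a1 most like Epha3 (0.94) and Col9a2 most like Sulf1 (0.90). Sox9 was most like Rnf24 (0.84), Sox6 most like Chst15 (0.88), Matn4 most like Sgcd (0.85), Sox5 most like Amotl1 (0.80) and Hapln1 most like Fam129b (0.77).

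A further 4 lists with 76 measured genes place the 9 among other genes of cartilage and bone. The deposited values held 14 of 26 listed cartilage matrix genes and 24 of 28 cartilage regulators. They also held 22 of 26 bone regulators and 16 of 23 bone matrix and mineral genes. Listed genes absent from the deposited values could not be tested. The shares of all genes called in the mean over days, 10.2% higher and 8.32% lower in SO cells and 3.46% higher and 3.71% lower in SD cells, stand behind each count below. Of 22 measured bone regulators, 10 rose and 0 fell in SO cells in the mean over days (median 0.83), while 1 rose and 1 fell in SD cells (median 0.11). Among the 10, Dlx5, named after its values were seen, was above a log2 CPM of 0 in SO libraries only. Dlx5 thus passed the filter only through the group where it is high, and how many other listed genes did so was not counted. Sp7, the osteoblast factor that acts downstream of Runx2, had 7.85, 12.3 and 12.4 CPM in SO cells at E12.5, against 2.03, 3.10 and 1.08 CPM in wild-type CD1 cells. At E13.5 it had 18.7, 18.5 and 34.1 CPM in SO cells, against 1.65, 2.15 and 1.76 CPM in wild-type, so the groups were separated at both days (mean 3.06 ± 0.37, adjusted p = 1.49e-06). Twist1, a factor that restrains Runx2, rose by 0.84 ± 0.11 in SO cells (adjusted p = 5.18e-06). Alx1, a homeobox factor of the craniofacial skeleton, changed in opposite directions: it fell by 4.63 ± 0.40 in SD cells (adjusted p = 1.62e-07) and rose by 2.79 ± 0.40 in SO cells (adjusted p = 1.8e-05). The gene called higher in SD cells was Twist2 (0.79 ± 0.16, adjusted p = 0.00277).

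Of 24 measured cartilage regulators, 8 rose and 4 fell in SO cells (median 0.15), and 0 were called in SD cells (median 0.14). Trps1, a repressor that acts in growth plate cartilage, was 13.8-fold higher in SO cells, with 151 to 205 CPM against 5.40 to 18.9 CPM in wild-type CD1 cells (3.79 ± 0.21, adjusted p = 5.79e-12). Prrx1 and Prrx2, homeobox factors of limb and facial mesenchyme, rose 2.47-fold and 2.45-fold, and Pth1r, the receptor for parathyroid hormone-related protein, rose 1.56-fold. Of 14 other cartilage matrix genes, 3 rose and 0 fell in SO cells (median 0.60), and 2 rose and 0 fell in SD cells (median 0.22). Col11a1 was among them in both, by 1.21 ± 0.15 in SO cells (adjusted p = 2.26e-06) and 0.52 ± 0.15 in SD cells (adjusted p = 0.0348), as was Fmod, a proteoglycan that binds collagen fibrils, by 0.70 ± 0.21 in SO cells (adjusted p = 0.023) and 0.78 ± 0.21 in SD cells (adjusted p = 0.0246). Epyc, a small proteoglycan of growth plate cartilage, rose by 1.41 ± 0.46 in SO cells (adjusted p = 0.0324). Of 16 measured bone matrix and mineral genes, 1 rose in SO cells, Aspn (1.35 ± 0.43, adjusted p = 0.0322), and 2 rose in SD cells, Mgp, an inhibitor of calcification (1.40 ± 0.13, adjusted p = 2.69e-07), and Ank, a pyrophosphate transporter (0.52 ± 0.11, adjusted p = 0.00449). Medians over all genes were within 0.01 of 0. In SO cells, 3 of 14 cartilage matrix genes is near, and 1 of 16 bone matrix genes below, the 18.5% of all genes called either way, so neither count is a result about its list. The lists were chosen with earlier results of these data known, so the counts of all 4 lists, in SO and in SD cells, are descriptions and not tests of a list.

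**Figure D4:**
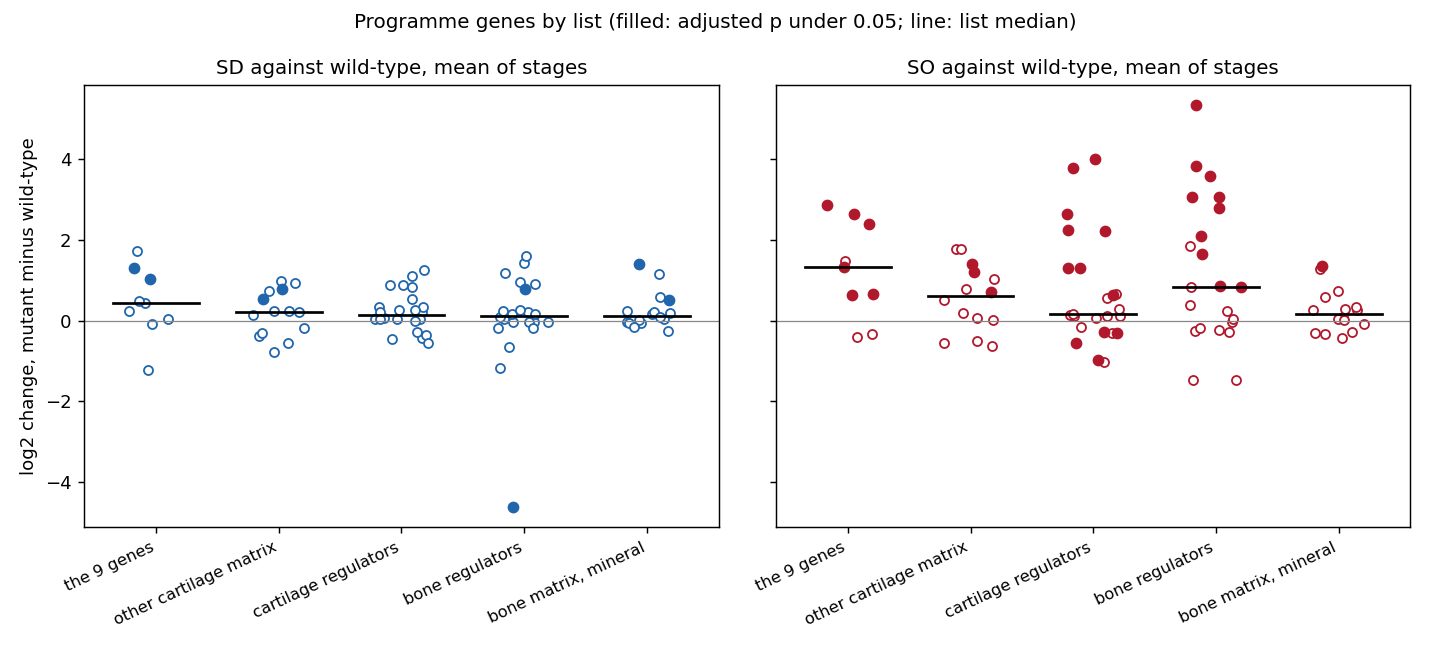
Log2 change averaged over E12.5 and E13.5 (vertical axis) for each measured gene of 5 lists, in SD cells (left) and SO cells (right); filled points had an adjusted p under 0.05 and black lines are list medians. The 10 called bone regulators of SO cells all lie above 0, whereas the called cartilage regulators lie on both sides, 8 above and 4 below.

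Markers of other cells were set beside these results. In the mean over days 10.2% of all genes were called higher and 8.32% lower in SO cells. In SD cells 3.46% were called higher and 3.71% lower. At E13.5 alone 15.4% were called either way in SO cells. Of 6 measured markers of sclerotome and muscle, 3 were higher in SO cells in the mean over days (Pax1, Pax9 and Nkx3-2, which the cartilage regulator list also holds) and 1 lower (Scx); these were named after their values were seen. Pax1 had 35.4, 21.5 and 56.8 CPM in SO cells at E12.5, against 3.91, 5.96 and 3.14 CPM in wild-type CD1 cells. The summed level of the 6 markers was 42.9 to 93.5 CPM in SO cells and 24.8 to 28.6 CPM in wild-type CD1 cells at E12.5, and 16.9 to 30.3 CPM in SO cells and 21.2 to 93.3 CPM in wild-type cells at E13.5. In SD cells 1 of the 6 was higher (Scx), with sums of 34.5 to 66.0 CPM in SD and 30.5 to 34.2 CPM in wild-type C57BL/6 cells at E12.5, and 42.4 to 54.0 CPM in SD and 25.0 to 30.5 CPM in wild-type cells at E13.5. Of 7 measured markers of glia and neural crest, 1 was higher in SO cells (Tubb3), with sums of 22.8 to 23.1 CPM in SO and 11.2 to 22.3 CPM in wild-type CD1 cells at E12.5, and overlapping sums of 17.7 to 36.1 CPM in SO and 11.8 to 41.1 CPM in wild-type cells at E13.5. Of 12 macrophage and 12 endothelial markers, 10 and 8 were lower in SD cells in the mean over days. In SO cells 2 macrophage markers were higher at E13.5 (C1qa and C1qc), with sums of 460 to 1153 CPM in SO and 314 to 421 CPM in wild-type CD1 cells, without overlap, and 520 to 787 CPM in SO and 753 to 789 CPM in wild-type cells at E12.5. Endothelial sums overlapped, at 96.7 to 212 CPM in SO and 100 to 398 CPM in wild-type CD1 cells at E12.5 and 268 to 419 CPM in SO and 49.4 to 870 CPM in wild-type cells at E13.5. Of 9 liver, gonad and adrenal markers, 3 were lower in SO cells in the mean over days (Afp, Alb and Apoa1), with sums of 1.38 to 3.37 CPM in SO and 185 to 197 CPM in wild-type CD1 cells at E12.5. Of 5 measured erythroid markers, 3 were lower, the globins Hbb-bh1 and Hba-x among them, with sums of 58.5 to 973 CPM in SO and 3205 to 3318 CPM in wild-type CD1 cells at E12.5. In the SD line macrophage sums at E12.5 overlapped, at 80.3 to 192 CPM in SD and 109 to 695 CPM in wild-type C57BL/6 cells. At E13.5 they were 19.1 to 48.65 CPM in SD and 194 to 311 CPM in wild-type cells, without overlap. Endothelial sums at E12.5 overlapped, at 50.0 to 97.9 CPM in SD and 56.0 to 195 CPM in wild-type cells. At E13.5 they were 53.4 to 82.8 CPM in SD and 133 to 142 CPM in wild-type cells, without overlap. Of the 5 erythroid markers, 3 were lower in SD cells in the mean over days (Hbb-bh1, Hba-x and Hbb-y). The part of these cells in the changes of the 9 genes was not tested.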

How the data were processed

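The authors deposited log2 values: log2 CPM after TMM scaling of the library sizes, with 0.5 added to each count. Per the submitters' processing notes, HISAT2, HTSeq, limma and the mm10 build were used; versions, filters and the strand setting are not stated in the sources used. Read counts were worked back from the deposited log2 values, and 100% of them came within 0.1 of an integer. Libraries held 6.18 to 21.2 M reads, which sets the counting error of low genes such as Sox6 and Matn4. Columns were mapped to libraries by their labels.

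The deposited log2 CPM values were fitted with limma 3.58.1 in R 4.3.3: 8 group means over 24 libraries, empirical Bayes with a mean-variance trend, 16 residual and 6.43 prior degrees of freedom. Genes needed a log2 CPM above 0 in 3 libraries, which all 13803 passed. Matn4 and Dlx5 passed only through SO libraries. Tests of 12 contrasts were two-sided, with Benjamini-Hochberg adjustment over all genes and a threshold of 0.05. The fit was tested on simulated data. Alternatives were voom weights, median-of-ratios scaling, 2 in place of 0.5 added, a stricter filter, fits within a line, a replicate block and left-out libraries. The 9 genes were named throughout, with up to 4 called genes a list of smallest p in the SD and SO means, and, of the 3 genes most correlated with each of the 9, at least the first. A gene that this rule names is not reported here. The genes and lists were chosen with earlier results of these data known, so counts over them are descriptions. Positions are from GENCODE M21 (GRCm38). No transcript of another gene matched a transcript of the 9 at 95% identity over 200 bases (BLAST 2.17.0). Figures were drawn in Python 3.11.15 with matplotlib 3.10.9.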

Additional observations from a re-analysis of the deposited data

Results flagged for a closer look

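The 6 genes Runx2, Sox5, Sox6, Col2a1, Col9a1 and Hapln1 are listed because the SO effect and the SD effect, each against its own wild-type and averaged over E12.5 and E13.5, differed by the limma test of the difference itself. The SO effect minus the SD effect was 1.58 for Runx2 and 2.5 for Col2a1 on the log2 scale, and 1.3 for Col9a1. It was 2.72 for Sox6, -0.82 for Sox5 and -0.86 for Hapln1. Strain differs along with the mutant line, and the part of strain in these differences cannot be told apart from that of the allele.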

How the results depend on the processing

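The number of the 9 genes called depended on the fit where adjusted p values lay near the threshold. For SD at E12.5 (0 called), voom weights gave 1, the 12 libraries of the line alone 2 and the replicate block 2; leaving out libraries gave 0 to 1. For SD at E13.5 (2 called) the replicate block gave 4 and leaving out libraries 0 to 2. For SO at E12.5 (2 called) the replicate block gave 5 and the fit without the 2 libraries highest in Alb (wild-type C57BL/6 E12.5 replicate 3 and wild-type CD1 E13.5 replicate 3) 4; for SO at E13.5 (4 called) leaving out libraries gave 3 to 7. For the SO difference between days (0 called) the replicate block gave 1, for CD1 wild-type ages (1 called) leaving out libraries gave 1 to 5, and for strains (0 called) voom weights gave 1, the fit without the 2 libraries highest in Alb 2 and leaving out libraries 0 to 2. Over the 4 comparisons together, same-numbered libraries did not pair as a rule. Of 12 pairs, 2 had correlated deviations over 0.1 (range -0.126 to 0.355), and 4 libraries correlated best with their own number. Both pairs over 0.1, and 3 of the 4 libraries, were SD E12.5 (0.26, 0.076 and 0.355), though 1 of its 3 pairs stays under 0.1. There the block called Runx2 (adjusted p = 0.0456) and Sox9 (adjusted p = 0.0103). Whether the SD E12.5 libraries pair with their wild-type libraries is not settled by these values. In the other comparisons the block is not read further. The changes of direction concern uncalled values. Matn4 between CD1 ages was 0.008 with 2 added to each count, Sox5 between C57BL/6 ages -0.018 with voom weights, and Col9a1 in the SD mean -0.104 without the 2 libraries highest in Alb. Not all reversed values were near 0 with all libraries. In SD at E12.5 Matn4 was 0.57 and Col2a1 -0.351, and Matn4 between C57BL/6 ages was 0.489. Leaving out 1 library at a time gave log2 ranges across 0 for Sox5 -0.042 to 0.4, Matn4 -0.185 to 1.917 and Col2a1 -0.638 to 0.103 in SD at E12.5, Col9a1 -0.241 to 0.283 and Col2a1 -0.317 to 0.134 in the SD mean, Col2a1 -0.284 to 0.486 and Col9a2 -0.104 to 0.141 in SD at E13.5, Sox5 -0.237 to 0.205 and Matn4 -0.319 to 1.363 in C57BL/6 ages, Sox5 -0.121 to 0.049 in SO at E12.5, Matn4 -0.912 to 0.464 and Hapln1 -0.076 to 0.505 in CD1 ages. Median-of-ratios scaling moved the median of all genes by at most 0.013. Depth limits Sox6 in SD cells and Matn4 in SD and wild-type cells most. The cause of these differences between fits was not tested.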
